A study of Mus musculus with 9 samples.

Results

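The constitutive proteasome subunits were followed in mouse kidney cortex after cisplatin, with and without a herbal decoction. The set holds every gene whose mouse symbol is Psma, Psmb, Psmc or Psmd with a number, other than Psmb8, Psmb9 and Psmb10, which are the inducible catalytic subunits of the immunoproteasome. It has 36 members among 17963 genes of the deposited table, and 34 of the 36 had enough reads to be tested. The YSJZD group had received cisplatin into the peritoneum and Yishen Jiangzhuo decoction, a herbal medicine, by gavage. Mice of the cisplatin group got the same injection, a platinum anticancer drug that injures the kidney tubule, with pure water by gavage. Control mice got an intraperitoneal saline injection, also with pure water by gavage. All were mice of the genotype given as WT, sampled on day 4, with 3 libraries per group and 9 in all, and the labels give no strain, age or dose. The design text says that 3 cortex samples were picked at random from each group but not in words that each came from another mouse, so the tests reflect sample-to-sample spread, part of which may be technical.

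The 26S proteasome is the ATP-dependent protease that degrades proteins tagged with ubiquitin. Its 20S core is a barrel of alpha rings, which form the gate, around beta rings, which carry the cutting sites. A 19S particle caps the barrel: the ATPases of its base unfold the substrate, and its lid removes the ubiquitin chain. In mammalian cells the subunit genes are known to be raised together by the transcription factor NRF1 (Nfe2l1) when proteasome activity falls. In the kidney, proximal tubule cells handle large amounts of filtered protein and are the main site of cisplatin injury.

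Most subunit transcripts lay within 1.5-fold of their control level while much of the transcriptome moved. A gene was called where its adjusted p from edgeR's quasi-likelihood test was under 0.05. With cisplatin, 2 of the 34 tested members were called higher and 9 lower than in control (32.4%), against a background of 54.6% of all 13954 tested genes. The 2 that rose were Psmd8, a lid subunit, and Psmd10, an assembly chaperone of the base, each by about 2.1-fold. The 9 that fell were spread over the rings, the base, the lid and the chaperones, with log2 fold changes of -0.67 to -0.36. Of these 9 calls, 3 (Psmc2, Psmd3 and Psmd5) held when libraries were scaled by their totals alone, and 4 held without control library 1. Of all 34 members, 29 (85.3%) lay within 1.5-fold of control, against 46.4% of all tested genes. Between YSJZD and cisplatin libraries 1 member, Psmd8, was called, lower with YSJZD (2.94%, against 35.4% of all genes). That call was lost in a fit of those 6 libraries alone and without any 1 of 4 libraries.

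The library totals lay between 15029274 and 16690471 expected counts. Members took 0.3579% to 0.4095% of the counts in YSJZD libraries, 0.3856% to 0.4106% with cisplatin and 0.3545% to 0.3903% in control. These shares overlap between all 3 groups. Proximal tubule markers, 10 genes, summed to 17689 to 36252 CPM (counts scaled to a common library size with TMM factors) in YSJZD libraries, 4503 to 7057 CPM with cisplatin and 66668 to 87869 CPM in control. Against control, 9 of these 10 were lower with cisplatin (26.0% of all tested genes were). Against cisplatin all 10 were higher with YSJZD (17.4% of all tested genes were). Kap was the largest part of each sum, with 56105 of 84409 CPM in control library 1. Macrophage and monocyte markers, 10 genes, summed to 106 to 154, 388 to 1970 and 107 to 160 CPM in YSJZD, cisplatin and control libraries. Against control, 7 of these 10 were higher with cisplatin (28.6% of all tested genes were). Against cisplatin 8 were lower with YSJZD (18.0% of all tested genes were). Lyz2 alone held 1164 of the 1970 CPM in cisplatin library 2. Neutrophil markers, 7 genes, summed to 3.80 to 8.23, 39.3 to 117 and 1.26 to 1.46 CPM in the same order. Of these Ly6g was too low to test. The other 6 were higher with cisplatin than in control and lower with YSJZD than with cisplatin, against the same shares of all tested genes. No gene of these 3 lists was at 0 in all libraries of a group, and the part of the cell mixture in the results below was not tested. In these bulk samples, fewer cells of a type and less RNA per cell cannot be told apart. The third cisplatin library stood apart from the other 2 on the third principal component (48.77, against -14.28 and -22.69). Several results in which it was highest, though not all, are therefore given without it too.

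Promoters are shown for the members that rose most and fell most after cisplatin (Psmd8, Psmd10 and Psmc2) and for catalytic subunits that hold an antioxidant response element core (Psmb5 and Psmb6). They come from RefSeq, build GRCm38.p6, which lists a window of 300 bases, 250 before the start and 50 after it, for 29 of the 36 members. Each is printed 5' to 3' on the gene's own strand. Psmd8 lies at chr7:29180624-29180923 on the minus strand and Psmd10 at chrX:140956662-140956961 on the minus strand. Psmc2 lies at chr5:21785025-21785324 on the plus strand and is the first of 2 windows listed for that gene. Psmb5 lies at chr14:54617946-54618245 on the minus strand and Psmb6 at chr11:70525107-70525406 on the plus strand. Capitals mark the antioxidant response element core, TGACNNNGC, the letters that NRF1 and its relative NRF2 bind, and the CCAAT box, each searched on both strands.
Psmd8: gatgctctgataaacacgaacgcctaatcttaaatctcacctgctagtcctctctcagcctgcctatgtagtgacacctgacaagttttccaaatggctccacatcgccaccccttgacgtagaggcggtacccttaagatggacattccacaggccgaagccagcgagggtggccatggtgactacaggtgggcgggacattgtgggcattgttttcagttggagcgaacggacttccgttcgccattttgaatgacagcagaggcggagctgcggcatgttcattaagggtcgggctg
Psmd10: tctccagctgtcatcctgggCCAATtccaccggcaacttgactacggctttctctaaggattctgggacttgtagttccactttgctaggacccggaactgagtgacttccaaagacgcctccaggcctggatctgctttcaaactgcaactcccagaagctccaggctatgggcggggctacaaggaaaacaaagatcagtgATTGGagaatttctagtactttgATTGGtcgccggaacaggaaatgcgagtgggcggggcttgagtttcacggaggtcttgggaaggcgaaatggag
Psmc2: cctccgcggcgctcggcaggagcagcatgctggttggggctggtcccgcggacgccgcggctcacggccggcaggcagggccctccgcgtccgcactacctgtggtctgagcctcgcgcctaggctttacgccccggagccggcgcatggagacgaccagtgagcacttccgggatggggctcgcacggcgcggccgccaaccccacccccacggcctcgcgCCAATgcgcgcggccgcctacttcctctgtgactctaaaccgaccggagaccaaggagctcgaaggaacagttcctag
Psmb5: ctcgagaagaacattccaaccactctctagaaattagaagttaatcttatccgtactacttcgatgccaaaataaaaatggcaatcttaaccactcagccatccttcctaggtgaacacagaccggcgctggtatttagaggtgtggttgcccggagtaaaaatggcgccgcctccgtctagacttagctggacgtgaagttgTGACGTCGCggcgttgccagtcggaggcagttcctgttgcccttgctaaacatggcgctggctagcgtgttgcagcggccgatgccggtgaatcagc
Psmb6: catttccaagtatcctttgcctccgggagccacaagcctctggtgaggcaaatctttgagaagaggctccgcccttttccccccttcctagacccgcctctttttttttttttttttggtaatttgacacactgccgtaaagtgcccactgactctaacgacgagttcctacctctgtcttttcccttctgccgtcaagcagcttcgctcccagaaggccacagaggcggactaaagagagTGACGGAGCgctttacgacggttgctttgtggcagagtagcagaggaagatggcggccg
In Psmb5 the capitals mark TGACGTCGC, which begins 47 bases before the start. In Psmb6 they mark TGACGGAGC, which begins 9 bases before the start. In Psmc2 and Psmd10 they mark CCAAT boxes, 1 and 3 of them, and the Psmd8 window holds neither motif. No antioxidant response element core overlapped a CCAAT box in these windows. Over the 29 members with a window, 5 (17.2%) held the antioxidant response element core: Psmb5, Psmb6, Psmc6, Psmd9 and Psmd12. Over all 27025 genes with a window the share was 14%. A CCAAT box stood in 12 of the 29 members (41.4%) and in 41.1% of all genes. Both shares in the members lie near those of all genes. Of the 5 genes with the antioxidant response element core, Psmd12 was called lower with cisplatin than in control and none was called higher. Over all tested genes 26.0% were called lower and 28.6% higher.

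Levels of different subunits were compared per length, as FPKM, within a group. Psmb3, a structural beta subunit, had the highest mean level in every group, with 233 FPKM with YSJZD, 260 with cisplatin and 236 in control. Psmd9, an assembly chaperone of the base, had the lowest, with 10.7, 9.59 and 8.73 FPKM in the same order. Mean levels thus spanned 21.8-fold, 27.1-fold and 27-fold around medians of 92.6, 93.2 and 88.2 FPKM. The chaperones Psmd5, Psmd9 and Psmd10 were at ranks 32, 34 and 33 of 34 with YSJZD, 33, 34 and 30 with cisplatin and 32, 34 and 33 in control. They stand below nearly every structural subunit.

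Psmd8 made the largest move in rank of the 34 members between cisplatin and control. It was at rank 9 with YSJZD, rank 2 with cisplatin and rank 15 in control. Its level was 149 ± 31.1 FPKM with YSJZD, 232 ± 40.6 with cisplatin and 95.9 ± 7.97 in control (SD, n = 3 each). These values place it among the members of each group, and its change between groups is given in CPM below. Psma4, a gate ring subunit, was at rank 4 with YSJZD, rank 12 with cisplatin and rank 6 in control. Many neighbours in the order did not differ beyond their spread, as the SDs in the plot of levels show. Summed FPKM of the 20S members over that of the 19S subunits was 1.42, 1.52 and 1.58 in YSJZD libraries, 1.35, 1.5 and 1.37 in cisplatin libraries and 1.57, 1.52 and 1.42 in control libraries. The ratio of core to cap overlaps between all groups. Between libraries of 1 group the CPM of members varied with a median coefficient of variation of 12% with YSJZD, 6.05% with cisplatin and 12.6% in control, against 16%, 16.9% and 13.7% for all tested genes.

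**Figure D1:**
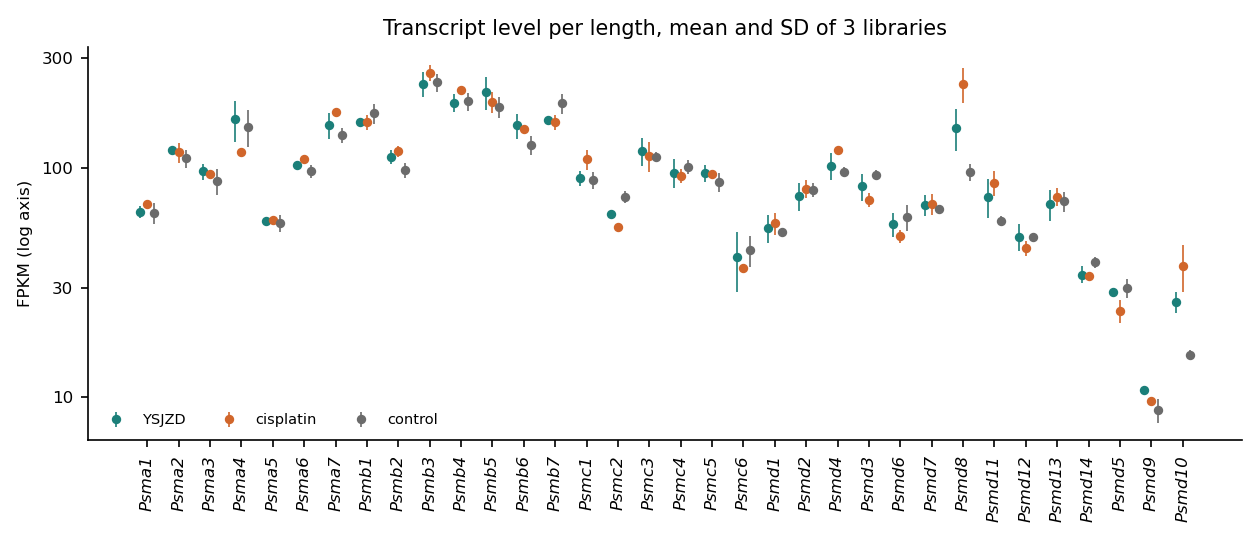
Mean FPKM on a log axis for the 34 tested members, ordered by their place in the proteasome, with YSJZD, cisplatin and control points from left to right within each gene and bars for the SD of 3 libraries. Psmb3 is the highest member and Psmd9 the lowest in each group. Psmd8 is at rank 2 of the 34 with cisplatin (232 FPKM) and at rank 15 in control (95.9 FPKM). FPKM carries no TMM factor, so it orders members within a group only.

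The comparison of cisplatin with control shows how the subunits stood in the injured kidney. Among the tested members 2 were called higher (background 28.6%) and 9 lower (background 26.0%), while 23 were not called. The libraries of the groups did not overlap for 13 members, against 63.4% of all tested genes. The median log2 fold change of the members was -0.15 against 0.04 for all genes, and it became 0.08 against 0.27 when scaled by library totals alone. Relative to all genes the members thus lay at -0.20 on the main scale and at -0.19 by library totals, where 5 were called higher and 3 lower. The median size of a change, regardless of sign, was 0.17 for members and 0.65 for all genes. Only Psmd8 and Psmd10 were called with at least a 2-fold change, which 33.0% of all tested genes reached.

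**Figure D2:**
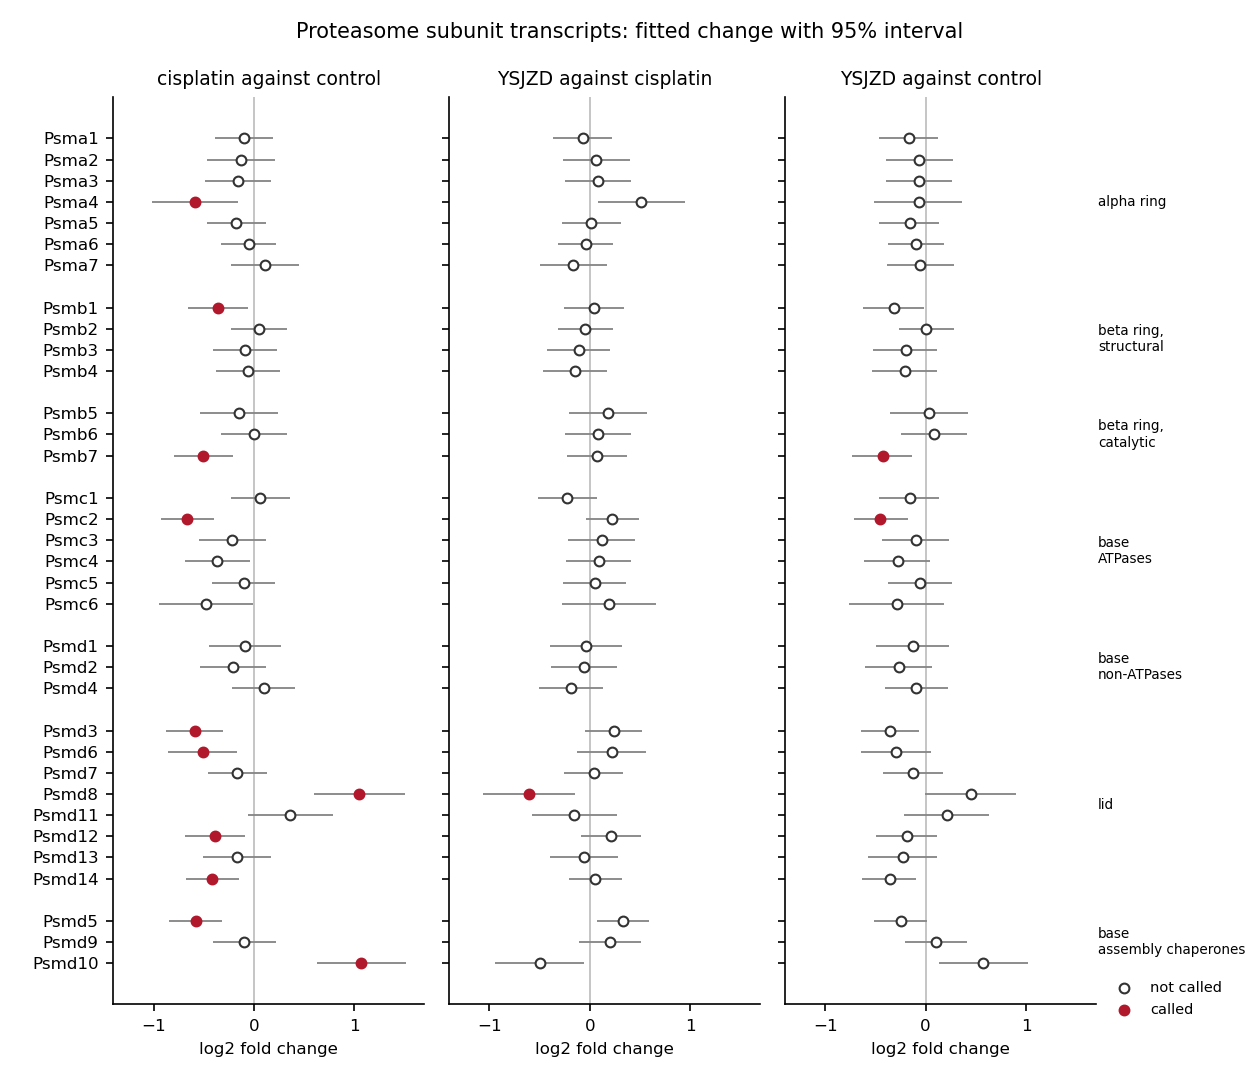
Log2 fold change of each tested member with its 95% interval from the edgeR fit, in 3 comparisons, grouped by place in the proteasome, with filled points for called members. In cisplatin against control, Psmd8 (1.05) and Psmd10 (1.07) stand to the right of all others and the called lower members lie between -0.67 and -0.36; scaling by library totals leaves 3 of those 9 called.

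In the lid, 1 of 8 tested members was called higher and 4 lower (62.5%, against 54.6% of all tested genes). Psmd8, the subunit known in yeast (as Rpn12) to complete the lid, had 243, 183 and 161 CPM in YSJZD libraries, 277, 242 and 376 CPM in cisplatin libraries and 163, 129 and 139 CPM in control libraries. Every cisplatin library was above every control library, the third cisplatin library was the highest of all, and YSJZD libraries reached into both ranges. Its log2 fold change in cisplatin against control was 1.05 ± 0.21 (SE; 95% interval 0.60 to 1.51; adjusted p = 0.00156). Without the third cisplatin library it was 0.85, and Psmd8 remained called there, without each other library, and by library totals. Psmd8 took 28.5%, 23.4% and 23.9% of the summed FPKM of the 8 lid members in YSJZD libraries, 32.9%, 32.1% and 39.5% in cisplatin libraries and 18.4%, 16.7% and 18.5% in control libraries. The 3 groups do not overlap in this share. As Psmd8 is the lid member called higher, the separation of cisplatin from control here is no further support. The separation of YSJZD rests on the same Psmd8 values and is no further support either. A single transcript stands for Psmd8 in the table, and the RefSeq annotation places no other gene over it.

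Psmd3, a structural lid subunit, had 185, 149 and 145 CPM with YSJZD, 141, 130 and 137 CPM with cisplatin and 211, 200 and 204 CPM in control. Cisplatin libraries were lowest, control libraries highest and YSJZD libraries between them, with no overlap. It fell by 0.59 ± 0.13 on the log2 scale in cisplatin against control (adjusted p = 0.00296) and was called by library totals too. The other lid members that fell were Psmd6 (-0.51 ± 0.16, adjusted p = 0.0177), Psmd14, the enzyme that removes ubiquitin chains (-0.42 ± 0.12, adjusted p = 0.0137), and Psmd12 (-0.39 ± 0.14, adjusted p = 0.0304). These 3 calls were lost by library totals. Psmd14 was also lost without control library 1 (-0.37, adjusted p = 0.0503). Psmd6 was lost without cisplatin library 2 or control library 1 or 2 (-0.48 to -0.40, adjusted p 0.0554 to 0.0717). Psmd12 was lost without cisplatin library 2 or 3 or control library 1 or 2 (-0.41 to -0.35, adjusted p 0.0522 to 0.0982).

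Psmd11, which bridges lid and core in the known structure, had 167, 157 and 111 CPM in YSJZD libraries, 150, 138 and 198 CPM in cisplatin libraries and 142, 120 and 115 CPM in control libraries. The groups overlapped, and the high cisplatin value came from the third library. Its log2 fold change in cisplatin against control was 0.36 (95% interval -0.06 to 0.79, adjusted p = 0.131) and 0.19 without that library. It was called higher by library totals. Its counts were split between 2 transcripts of similar share, 46.11% to 56.63% for one of them. Psmd7 and Psmd13 each stood at -0.17 and were not called.

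Psmd10, also known as gankyrin, is a chaperone that binds an ATPase of the base during assembly. It had 35.7, 29.3 and 32.0 CPM in YSJZD libraries, 34.6, 42.0 and 60.7 CPM in cisplatin libraries and 24.2, 20.8 and 20.3 CPM in control libraries. Control libraries lay below all others, and the third cisplatin library was again the highest. Its log2 fold change in cisplatin against control was 1.07 ± 0.20 (95% interval 0.63 to 1.52; adjusted p = 0.00119), and 0.81 without the third cisplatin library, where it remained called. In the RefSeq annotation Psmd10 overlaps Atg4a, an autophagy gene, and the sources used here do not state whether the counting used strand, so its level is less certain than its error says. Atg4a had 46.6, 44.2 and 54.2 CPM in YSJZD libraries, 71.1, 69.0 and 66.9 CPM in cisplatin libraries and 40.0, 36.0 and 27.4 CPM in control libraries. It was called higher in cisplatin against control (1.00 ± 0.15, adjusted p = 0.000341) and lower in YSJZD against cisplatin (-0.51 ± 0.15, adjusted p = 0.0234).

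Psmd5, another chaperone of the base, had 53.8, 51.2 and 49.1 CPM in YSJZD libraries, 43.4, 40.1 and 38.9 CPM in cisplatin libraries and 66.6, 54.2 and 62.7 CPM in control libraries. The 3 groups were in separate ranges, cisplatin lowest. It fell by 0.58 ± 0.12 on the log2 scale in cisplatin against control (adjusted p = 0.00194), was called by library totals and remained called without each library in turn. Its main transcript took 81.37%, 84.93% and 84.42% of its counts in YSJZD libraries, 60.75%, 74.79% and 76.88% in cisplatin libraries and 88.71%, 83.53% and 86.28% in control libraries. This share was lowest in the cisplatin libraries, with no overlap, and the rest of the counts lay on 2 predicted transcripts. Psmd10 and Psmd5 are both assembly chaperones of the base. The FPKM of the first over the second was 0.953, 0.824 and 0.936 in YSJZD libraries, 1.12, 1.49 and 2.23 in cisplatin libraries and 0.523, 0.55 and 0.469 in control libraries. The 3 groups do not overlap in this ratio. As Psmd10 rose and Psmd5 fell in cisplatin against control, the separation of those groups follows from these values and is no further support. The separation of YSJZD rests on the same values. In the main fit neither gene was called in YSJZD against cisplatin or against control. Psmd9, the last of these chaperones, was at -0.10 (95% interval -0.41 to 0.22) in cisplatin against control.

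**Figure D3:**
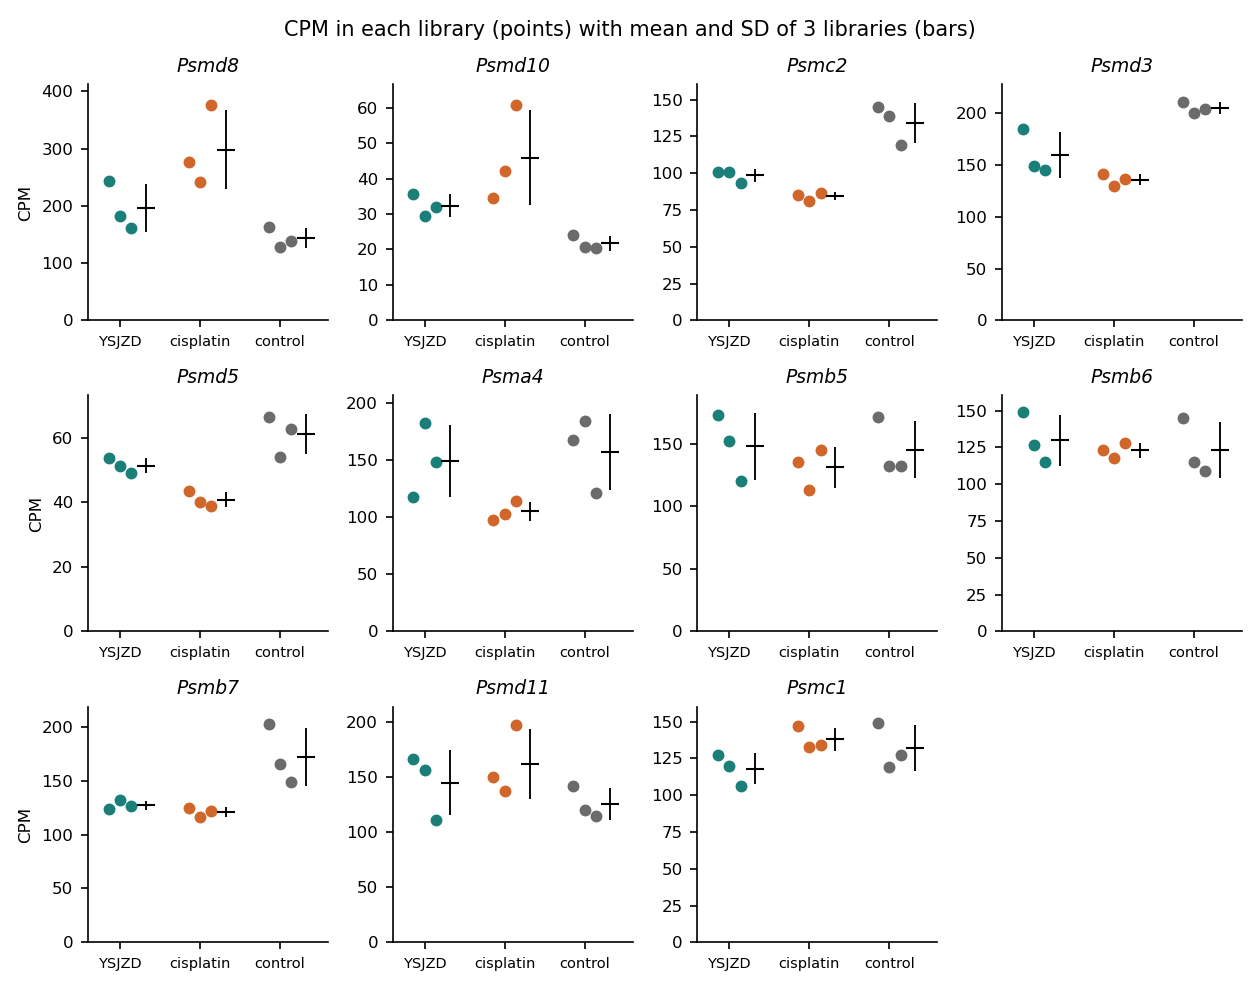
CPM in every library for 11 members, with YSJZD, cisplatin and control from left to right and the mean with SD of 3 libraries beside the points. For Psmd8 and Psmd10 every cisplatin library lies above every control library, for Psmc2, Psmd3, Psmd5, Psma4 and Psmb7 every one lies below, and for Psmb5 and Psmb6 the groups overlap.

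Among the 6 ATPases of the base, 1 fell with cisplatin and none rose (16.7%, against 54.6% of all tested genes). Psmc2, which lines the translocation channel with the other 5, had 101, 101 and 93.5 CPM in YSJZD libraries, 85.0, 81.4 and 86.8 CPM in cisplatin libraries and 145, 139 and 119 CPM in control libraries. The groups were again in separate ranges. It fell by 0.67 ± 0.12 on the log2 scale in cisplatin against control (adjusted p = 0.000924), the lowest value of any member. The call was kept by library totals and without each library in turn, where the value ran from -0.76 to -0.61. Psmc6 (-0.48, adjusted p = 0.0789) and Psmc4 (-0.37, adjusted p = 0.0534) were not called although their cisplatin and control libraries did not overlap. Psmc4 was called with DESeq2, with its size factors and in the fit of 6 libraries, and Psmc6 in the last of these. Psmc1, whose tail is known in yeast to help open the gate, had 127, 120 and 106 CPM in YSJZD libraries, 147, 133 and 134 CPM in cisplatin libraries and 149, 119 and 127 CPM in control libraries. Cisplatin and control libraries overlapped, with a log2 fold change of 0.06. Psmc3 (-0.22) and Psmc5 (-0.10) were not called. The large scaffold subunits of the base, Psmd1 and Psmd2, and the ubiquitin receptor Psmd4 stood at -0.09, -0.21 and 0.10, and none of these 3 was called.

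In the alpha ring, which gates the core, 1 of 7 tested members fell with cisplatin (14.3%, against 54.6% of all tested genes). Psma4 had 118, 182 and 148 CPM in YSJZD libraries, 97.4, 103 and 114 CPM in cisplatin libraries and 167, 184 and 121 CPM in control libraries. Cisplatin libraries lay below all others, by a narrow gap to the first YSJZD and the third control library. It fell by 0.59 ± 0.19 on the log2 scale in cisplatin against control (adjusted p = 0.0258). The call was lost by library totals and without cisplatin library 1 or 2 or control library 1 or 2 (-0.57 to -0.46, adjusted p 0.0663 to 0.101). Psma4 overlaps a further annotated gene, AY074887, with the same limit as for Psmd10. The other 6 tested alpha members, Psma1, Psma2, Psma3, Psma5, Psma6 and Psma7, lay between -0.18 and 0.11 and were not called. Psma8, the testis form of an alpha subunit, had 5, 3 and 1 counts in YSJZD libraries, 7, 6 and 4 in cisplatin libraries and 4, 4 and 3 in control libraries and was too low to test.

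In the beta rings the structural subunit Psmb1 and the catalytic subunit Psmb7 fell with cisplatin. Psmb7, which carries the trypsin-like site, had 124, 132 and 126 CPM in YSJZD libraries, 125, 116 and 122 CPM in cisplatin libraries and 202, 165 and 149 CPM in control libraries. Libraries of the 2 groups given cisplatin lay together, below all control libraries. Its log2 fold change in cisplatin against control was -0.51 ± 0.13 (adjusted p = 0.00903), a call that remained without each library in turn but not by library totals. Psmb5, which carries the chymotrypsin-like site, had 173, 152 and 120 CPM in YSJZD libraries, 135, 113 and 145 CPM in cisplatin libraries and 171, 132 and 132 CPM in control libraries. Its groups overlapped, at -0.15 (95% interval -0.54 to 0.24) in cisplatin against control and 0.08 by library totals. Psmb6, which carries the caspase-like site, had 149, 127 and 115 CPM in YSJZD libraries, 123, 118 and 128 CPM in cisplatin libraries and 145, 115 and 109 CPM in control libraries. It too overlapped in all groups, at 0.00 (95% interval -0.33 to 0.33). Psmb1 was at -0.36 ± 0.14 (adjusted p = 0.0436), a call lost by library totals, without filtering, in a fit of the 6 libraries alone, and without any 1 of the cisplatin libraries or control library 1 or 2 (-0.39 to -0.23, adjusted p 0.0715 to 0.164). Psmb2, Psmb3 and Psmb4 lay between -0.09 and 0.05. Psmb11, the catalytic subunit of the thymus, had 2 counts in 1 cisplatin library and 0 in the other 8 libraries.

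**Figure D4:**
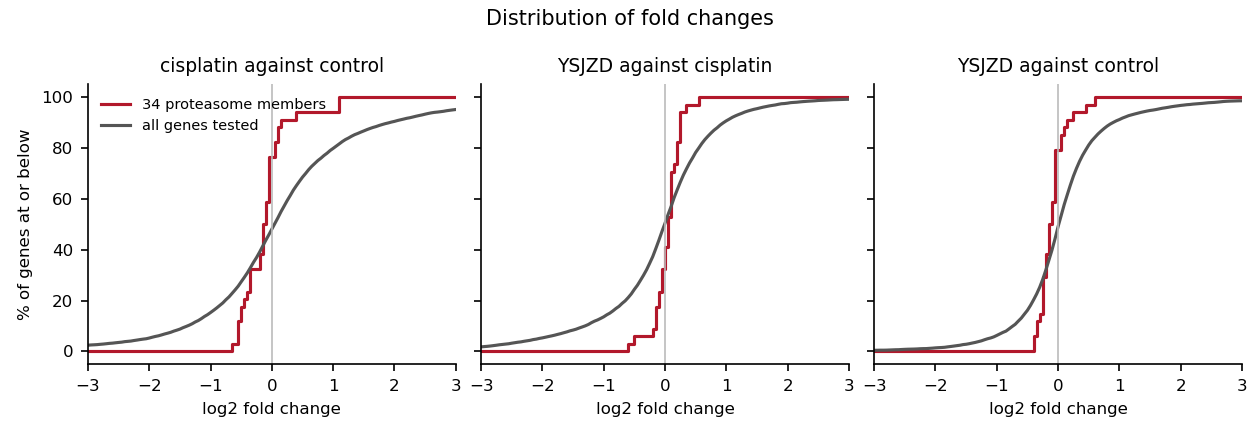
Share of genes at or below each log2 fold change, for the 34 tested members (red) and for all 13954 tested genes (grey), in 3 comparisons. The red steps rise within a narrow band around 0 while the grey curves spread widely; the member median in cisplatin against control is -0.15, and 0.08 when scaled by library totals.

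The comparison of YSJZD with cisplatin alone shows how the subunits stood when the decoction was given with the drug. It uses the same cisplatin libraries as the comparison above. No member was called higher (background 17.4%) and 1 lower (background 18.0%), so that 2.94% of the members were called against 35.4% of all genes. The median log2 fold change was 0.04, and -0.01 over all genes. Of the 34 members, 33 (97.1%) lay within 1.5-fold, against 59.6% of all genes, and the libraries of the groups did not overlap for 6 members, against 47.3% of all genes. Psmd8 was at -0.61 ± 0.20 (95% interval -1.06 to -0.15, adjusted p = 0.0405), although its highest YSJZD library (243 CPM) was level with its lowest cisplatin library (242 CPM). That call was lost in a fit of the 6 libraries alone and without YSJZD library 2 or 3 or cisplatin library 1 or 3 (-0.66 to -0.41, adjusted p 0.0612 to 0.147). Without cisplatin library 3 the value was -0.41, and no member was called. Psmd10 (-0.50, adjusted p = 0.0717) was not called, nor were Psma4 (0.51, adjusted p = 0.0633), Psmd5 (0.33, adjusted p = 0.0501), Psmd3 (0.24, adjusted p = 0.176) and Psmc1 (-0.23, adjusted p = 0.207). Without cisplatin library 1 Psmd10 was called at -0.67 (adjusted p = 0.0241), and without cisplatin library 3 it was at -0.25. Without YSJZD library 1 Psma4 was called at 0.66 (adjusted p = 0.0258). The catalytic subunits Psmb5, Psmb6 and Psmb7 stood at 0.18 (95% interval -0.21 to 0.57), 0.08 (-0.25 to 0.41) and 0.07 (-0.23 to 0.37).

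YSJZD against control compares kidneys given both agents with kidneys given neither, and shares libraries with both comparisons above. No member was called higher (background 9.93%) and 2 lower (background 9.37%), or 5.88% in all against 19.3% of all genes. The median log2 fold change was -0.15 against 0.01, and 0.05 against 0.20 by library totals, which is -0.16 and -0.15 relative to all genes. All 34 tested members lay within 1.5-fold of control, against 70.3% of all genes, and the groups did not overlap for 7, against 40.4%. The 2 members that fell were Psmc2 (-0.45 ± 0.12, adjusted p = 0.0266) and Psmb7 (-0.43 ± 0.13, adjusted p = 0.0467). Both calls were lost by library totals, under which Psmd8 and Psmd10 were called higher instead. The Psmc2 call was lost without YSJZD library 2 or 3 or control library 1 or 2 (-0.46 to -0.39, adjusted p 0.0578 to 0.0964). The Psmb7 call was lost without filtering, in a fit of the 6 libraries alone, and without any 1 YSJZD library or control library 1 or 2 (-0.46 to -0.30, adjusted p 0.0831 to 0.157). Psmd8 (0.45, adjusted p = 0.157) and Psmd10 (0.57, adjusted p = 0.0707) were not called. Psmd3 was at -0.36 (adjusted p = 0.0797), and called at -0.47 without YSJZD library 1 (adjusted p = 0.0251).

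Each constitutive catalytic subunit has an inducible counterpart that replaces it in the immunoproteasome, which is known for making peptides for class I antigen presentation. Psmb8, Psmb9 and Psmb10 rose in cisplatin against control by 3.19 ± 0.35, 2.09 ± 0.31 and 2.58 ± 0.28 on the log2 scale (adjusted p = 4.21e-05, 0.000304 and 3.95e-05), and in YSJZD against cisplatin they stood at -1.50, -1.20 and -0.81 (adjusted p = 0.00546, 0.0113 and 0.0334). The last of these calls was lost in a fit of the 6 libraries alone and without any 1 YSJZD library or cisplatin library 3, and the value without that cisplatin library was -0.45 (adjusted p 0.0688 to 0.104 over these 4). The FPKM of Psmb8 over that of Psmb5 was 0.0497, 0.0886 and 0.174 in YSJZD libraries, 0.213, 0.348 and 0.371 in cisplatin libraries and 0.0241, 0.0281 and 0.0409 in control libraries. Psmb8 thus stood below Psmb5 in every library, and the 3 groups do not overlap. The FPKM of Psmb9 over that of Psmb6 was 0.0363, 0.0626 and 0.115 in YSJZD libraries, 0.139, 0.189 and 0.17 in cisplatin libraries and 0.03, 0.0403 and 0.0485 in control libraries. Here YSJZD and control libraries overlap and cisplatin libraries lie above both. The FPKM of Psmb10 over that of Psmb7 was 0.163, 0.135 and 0.169 in YSJZD libraries, 0.183, 0.264 and 0.416 in cisplatin libraries and 0.0345, 0.0316 and 0.034 in control libraries, with no overlap.

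On the log2 scale these ratios differed between cisplatin and control by 3.32 for Psmb8 to Psmb5, 2.08 for Psmb9 to Psmb6 and 3.03 for Psmb10 to Psmb7. Each had a two-sided exact permutation p of 0.1, the smallest that 3 against 3 libraries can give, and 0.113 after Benjamini-Hochberg adjustment over the 9 tests. Between YSJZD and cisplatin the differences were -1.72, -1.37 and -0.81 with the same exact p of 0.1, and the last was -0.50 without cisplatin library 3. Between YSJZD and control they were 1.59, 0.72 and 2.22, with exact p of 0.1, 0.3 and 0.1. None can pass 0.05 in this design, and 3 against 3 libraries that do not overlap always give 0.1. The ratios rest on the same Psmb8, Psmb9 and Psmb10 values as the calls above, so their separation is no further support. The macrophage and monocyte markers moved in the same direction as the inducible subunits in cisplatin against control and in YSJZD against cisplatin. Within the cisplatin group the sum of these markers was lowest in library 3 (388 CPM, against 732 and 1970). The neutrophil marker sum of library 3 lay between those of libraries 1 and 2 (81.1 CPM, against 39.3 and 117). Psmb8 and Psmb10 were highest in library 3 (80.0 and 69.8 CPM), and Psmb9 in library 2 (17.0 CPM). YSJZD and control sums of the macrophage and monocyte markers overlapped. Of those 10 genes 2, Cd68 (1.82) and Itgam (2.43), were called higher in YSJZD against control and 0 lower. The neutrophil sums did not overlap, with 3.80 to 8.23 CPM in YSJZD and 1.26 to 1.46 CPM in control libraries. Of the 7 neutrophil markers 3 were called higher there and 0 lower. Over all tested genes 9.93% were called higher. In YSJZD against control Psmb8 and Psmb10 were called higher (1.69 and 1.77) and Psmb9 was not (0.88). The part of the markers in these ratios was not tested.

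**Figure D5:**
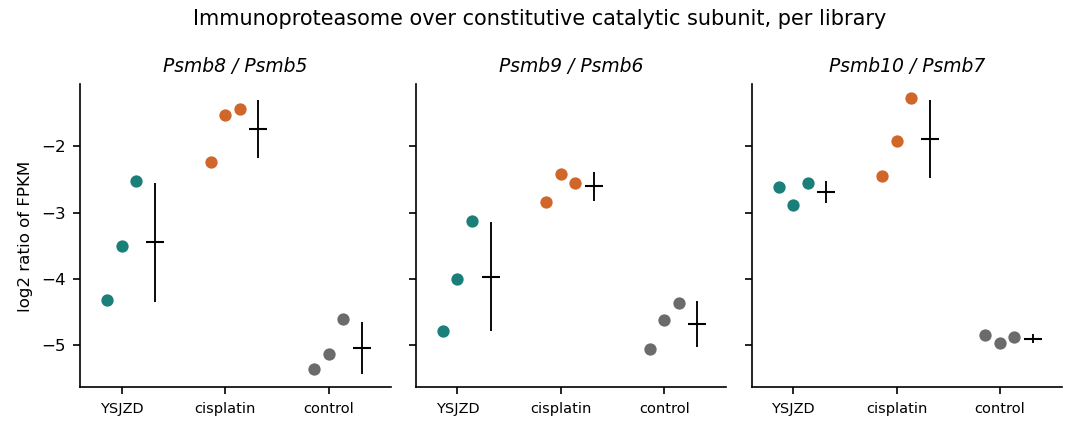
Log2 ratio of the FPKM of each inducible catalytic subunit to its constitutive counterpart in every library, with YSJZD, cisplatin and control from left to right and bars for the mean and SD of 3 libraries. Mean ratios with cisplatin (-1.73, -2.60 and -1.88) lie above those with YSJZD (-3.45, -3.97 and -2.69) and in control (-5.05, -4.69 and -4.91), and all stay under 0.

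Other genes of the pathway were followed in lists of regulators, assembly factors and substrate handling. The activator subunits Psme1 and Psme2, which form the interferon-inducible cap, rose by 1.32 ± 0.19 and 1.31 ± 0.15 on the log2 scale in cisplatin against control (adjusted p = 0.000256 and 4.79e-05). Of the 3 other regulators, the nuclear activator Psme4 fell by 0.73 ± 0.21 (adjusted p = 0.0152; -0.62 and adjusted p = 0.0591 without control library 2, and -0.50 and not called by library totals), while Psme3 (-0.30) and the inhibitor Psmf1 (-0.12) were not called. Of 5 chaperones that assemble the core rings, 1 rose and 2 fell in cisplatin against control (60.0%, against 54.6% of all tested genes). Psmg4 was at 1.10 ± 0.23 (adjusted p = 0.00266), Psmg1 at -1.06 ± 0.14 (adjusted p = 0.000133) and Psmg2 at -0.84 ± 0.20 (adjusted p = 0.00497), while Pomp, which completes the core, was at 0.24 (adjusted p = 0.135; 0.48 and called by library totals; 0.14 without control library 3). With YSJZD, Psmg1 was higher than with cisplatin by 1.05 ± 0.14 (adjusted p = 0.000518). The FPKM of Psmg4 over Psmg1 was 1.35, 1.17 and 1.14 in YSJZD libraries, 2.44, 3.13 and 2.86 in cisplatin libraries and 0.707, 0.671 and 0.436 in control libraries. The ratio separates the 3 groups. As Psmg4 rose and Psmg1 fell in cisplatin against control, the separation of those groups follows from these values and is no further support. In YSJZD against control Psmg4 was called higher (0.95, adjusted p = 0.0184). With the Psmg1 call in YSJZD against cisplatin, the separation of YSJZD is no further support either.

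Among 10 tested further subunits and associated factors, 3 rose and 3 fell in cisplatin against control (60.0%, against 54.6% of all tested genes). The rises were Zfand2a (1.28 ± 0.18, adjusted p = 0.000184) and Zfand5 (1.25 ± 0.31, adjusted p = 0.00661), zinc finger proteins that bind the 26S particle, and the small lid subunit Sem1 (0.51 ± 0.13, adjusted p = 0.00755). Without cisplatin library 3 Zfand5 was at 0.75 and still called. The falls were the ubiquitin ligase Ube3c (-0.53, adjusted p = 0.00634; -0.30 and not called by library totals) and, named after their values were seen and not recomputed under the alternatives, Adrm1 (-0.55) and Txnl1 (-0.49). In YSJZD against cisplatin Zfand2a was at -1.30 (adjusted p = 0.000571) and Zfand5 at -1.08 (adjusted p = 0.0222), and the Zfand5 call was lost in a fit of the 6 libraries alone and without YSJZD library 1 or 3 or cisplatin library 3 (-0.99 to -0.58, adjusted p 0.0513 to 0.0813). Nfe2l1 itself was at 0.47 ± 0.19 in cisplatin against control (adjusted p = 0.0562), at 0.26 and not called without cisplatin library 3, and at 0.59 and called without cisplatin library 1 (adjusted p = 0.0365). It was also called higher by library totals (0.69), in DESeq2 (0.46) and with a filter of 5 CPM (0.49). Of the 8 tested genes of its pathway, 4 fell and none was called higher (50.0%, against 54.6% of all tested genes), with Nfe2l1 as the exception under the settings above. These were Sel1l (-1.26), Vcp (-0.78), Syvn1 (-0.77) and Ngly1 (-0.76), which serve the extraction and processing of proteins at the endoplasmic reticulum (adjusted p 1.12e-05 to 0.00402). None of the 8 was called in YSJZD against cisplatin, against 35.4% of all tested genes. In YSJZD against control 3 were lower (37.5%, against 19.3% of all tested genes): Sel1l, Vcp and, named after its values were seen, Nploc4.

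Among ubiquitin and activation genes, Rps27a, which encodes ubiquitin fused to a ribosomal protein, rose in cisplatin against control (0.89, adjusted p = 0.00209). The activating enzymes Uba1 (-0.11) and Uba6 (-0.51; -0.23 without cisplatin library 2) were not called. Among shuttle factors, which carry tagged proteins to the proteasome, Ubqln1 (-0.79, adjusted p = 0.000566) and Rad23b (-0.47, adjusted p = 0.0147) fell in cisplatin against control. Rad23b was not called by library totals (-0.24) or without cisplatin library 2 (-0.42, adjusted p = 0.0584). The COP9 signalosome is a complex built like the proteasome lid. Of its 9 subunits 3 fell in cisplatin against control, Cops4 (-0.40, adjusted p = 0.0107), Gps1 (-0.44, adjusted p = 0.0266) and Cops3 (-0.32, adjusted p = 0.0486). All 3 calls were lost by library totals, at -0.17, -0.21 and -0.08. Gps1 and Cops3 also each lost the call without cisplatin library 2 or 3 or control library 1 or 2 (-0.47 to -0.24, adjusted p 0.053 to 0.171). Cops3 lost it too with limma-voom, under both other filters and in the fit of 6 libraries. That is 33.3% called, against 54.6% of all tested genes.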

How the data were processed

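RNA from kidney cortex was sequenced on a DNBSEQ platform, per the labels, in 9 libraries of 3 groups. The authors deposited a table of 58075 transcripts. Its read columns hold expected counts, per the submitters' processing notes (RSEM 1.3.1, with DESeq2 1.4.5 also named), and the unit of its other deposited columns, FPKM, was inferred from their values. A further 6 columns hold group averages and were left aside. The notes list GRCh38, a human build; the aligner is not given in the sources used here. Expected counts were summed per Entrez gene and rounded (17963 genes, 16.5% to 19.3% of gene values per library over 0.005 from a whole number), and 17847 genes took symbols from RefSeq GRCm38.p6. Reads that fit several paralogs are divided by RSEM, and no named pseudogene of a member is in the table.

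All 9 libraries were fitted in edgeR 4.0.16 (R 4.3.3) with filterByExpr, which removed 4009 genes, TMM factors of 0.855 to 1.105 and a quasi-likelihood fit on group alone, with Benjamini-Hochberg adjustment over 13954 genes. CPM uses the TMM library sizes. FPKM carries no such factor and serves only to compare genes within a library or group. The fit was also run on simulated counts with equal numbers of genes raised and lowered. That run does not probe the choice of library scaling, and its outcome is not given here. Two-sided exact permutation tests served the ratios. Members and lists were chosen with earlier results of these data known. Values by library are given for the catalytic subunits, for the 3 highest and 3 lowest members of the 2 comparisons with cisplatin, and for members too low to test; of each other list up to 4 genes by smallest p and a fixed set are named, except a few that are not reported here. Alternatives included DESeq2 1.42.0, limma-voom (limma 3.58.1), other scalings and filters, a replicate block, and each library left out.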

Additional observations from a re-analysis of the deposited data

How the results depend on the processing

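In cisplatin against control the 2 higher members, Psmd8 and Psmd10, were called under every alternative that fits across genes, and the lower members numbered 4 to 9 when single libraries were left out, the fewest without control library 1, against 9. They numbered 10 with DESeq2, with its size factors in edgeR and in the fit of 6 libraries, and 8 without filtering. By library totals 5 were higher and 3 lower with a median of 0.08; in YSJZD against cisplatin 2 were lower, and in YSJZD against control 2 were higher and 0 lower with a median of 0.05. These shifts follow the shift of all genes, whose median moved to 0.27 and 0.20 in the comparisons with control. In YSJZD against cisplatin DESeq2 called 2 higher (Psma4 and Psmd5), the fit of 6 libraries called 0 lower, and leaving out libraries gave 0 to 1 higher and 0 to 1 lower. In YSJZD against control DESeq2 called 4 lower, the fit of 6 libraries 1 higher and 1 lower, no filter 1 lower, and leaving out libraries 0 to 3 lower, while all called genes numbered 1607 to 2241 against 2694. Same-numbered libraries had correlations of -0.197 to 0.092, and not every library correlated best with its own number. The numbers thus gave no sign of pairing, though with 3 libraries a group this check cannot exclude it. With the replicate number as a block 1 member (Psmc2) was called lower in YSJZD against control, and in cisplatin against control Psmb1 lost its call and Psmc4 gained one. The Psmb10 call in YSJZD against cisplatin and the Cops3 call in cisplatin against control were lost as well. Signs changed only for values near 0 that were not called: in cisplatin against control Psmb6 was -0.01 with DESeq2 size factors, without filtering and in DESeq2, and by library totals Psmb5 was 0.08, Psmf1 0.11 and Uba1 0.12; in YSJZD against control by library totals Psma4 was 0.12 and Psmc1 0.03. Over left-out libraries Psmb6 ran from -0.08 to 0.13 and Psmc1 from -0.01 to 0.16 in cisplatin against control, Psmb6 from -0.02 to 0.17 and Psmd11 from -0.27 to 0.01 in YSJZD against cisplatin, and Psma4 from -0.24 to 0.07, Psmb5 from -0.10 to 0.17 and Psmb6 from -0.02 to 0.22 in YSJZD against control. Of 1274 recomputed gene values, 1131 kept direction and call, 95 lost the call, 27 gained it and 21 changed sign; the cause was not tested. Ratios from expected counts with no length, an alternative chosen after seeing the data, kept their direction; ratios from annotated transcript lengths were not run, because the table holds no lengths. With 3 libraries a group, a member that was not called is not shown to be level.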
